A study of Mus musculus with 30 samples.

Results

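The largest source of variation among the whole eye arrays ran between 2 slides. Of the 30 arrays of the series, 14 held whole eye RNA, spread over 4 slides, and the 8 described here are the 4 of slide 2 (replicates 3 and 4 of WT and of Per3-/-) and the 4 of slide 4 (replicates 7 and 8 of both genotypes). These arrays were chosen by their own signals, since the first principal component of the eye values set the slides apart, so the difference between the slides is given as a description, with no test. The animals were adult male Per3-/- mice, which lack functional protein of the circadian clock gene Per3, and their WT litter mates, all of C57Bl/6J background. They were moved from an ordinary light/dark cycle to alternating light and dark periods of 3.5 h each, and tissue was taken in the 17th such cycle. No sex, age, strain or lighting difference between the slides is given in the labels. Each slide carried different mice and was scanned once, so mouse and slide cannot be told apart. The altered allele is present in every cell of the body, and the eye was taken whole. How much muscle, fat, gland and optic nerve stayed attached is not given in the sources used here.

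A whole eye holds the neural retina, with its rod and cone photoreceptors, the pigment epithelium behind it, the lens, the cornea and the sclera. Lens fibre cells are filled with crystallins, which keep the lens clear. The optic nerve becomes myelinated once it has left the retina, so myelin transcripts enter such a sample with the nerve stump. Olfactory and vomeronasal receptors, the largest gene family of the mouse, are the odour and pheromone detectors of the nose, and most of them are read from short, often single coding exons. In a bulk sample, fewer cells of a type and less RNA per cell cannot be told apart.

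Values are log2 signals of 60-base probes, relative to the 75th percentile of the same array, so that 0 is the level of the 75th percentile and negative values lie below it. The tissue label was borne out by its markers: the median level of the rod photoreceptor genes was 5.78 on this scale over the 8 arrays and the lens crystallin Crygd averaged 8.76. Prdm16, a transcription factor gene that neighbours Per3 on chromosome 4, separated the genotypes on both slides, with 1.09 to 1.48 in the 7 WT eyes and -3.24 to -2.51 in the 7 Per3-/- eyes. Per3 itself stood at -3.55 and -3.49 in WT and at -4.12 and -4.06 in Per3-/- on slide 2, and at -2.57 and -2.69 in WT and at -3.02 and -2.90 in Per3-/- on slide 4. The genotypes thus did not overlap within either slide, yet both Per3-/- arrays of slide 4 lay above both WT arrays of slide 2. According to the authors, a cassette replaces part of the gene, and a longer Per3 mRNA is still made at a reduced level. Whether this probe lies within the replaced part is not given in the sources used here.

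On the first principal component of the 14 eye arrays, which held 39.5% of the variance, slide 2 scored from 0.27 to 0.43 and slide 4 from -0.39 to -0.32. The 2 arrays of slide 1 (0.10 and 0.15) and the 4 of slide 3 (-0.10 to 0.03) lay between them. With the 10283 probes whose mean reached the 75th percentile, the first component held 23.9%, and the order was less clear, with slide 2 from 0.04 to 0.58 and slide 4 from -0.41 to -0.01 but slides 1 and 3 spread from -0.38 to 0.27.

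**Figure D1:**
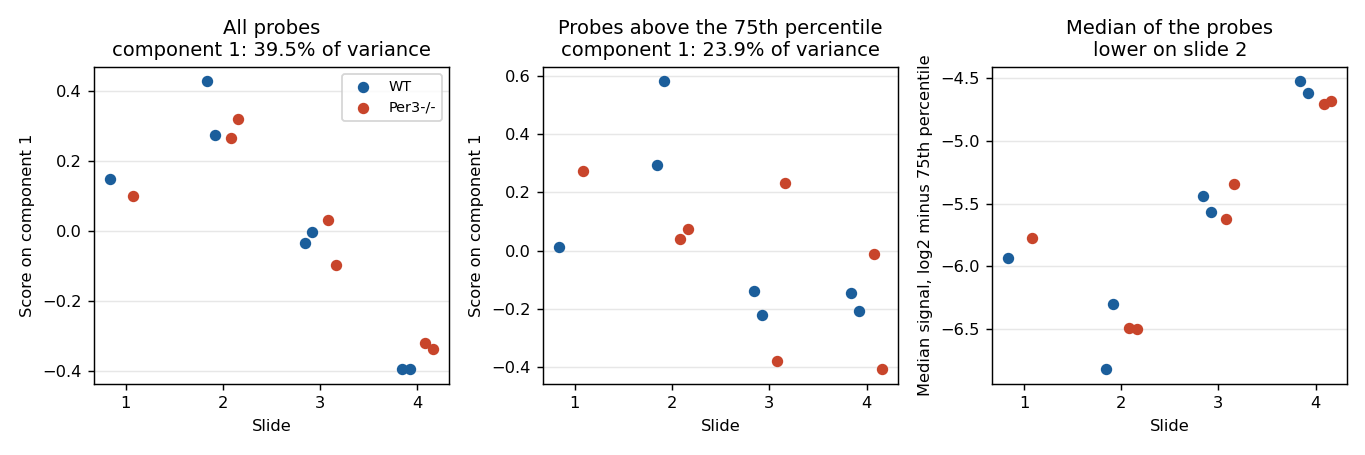
Left and middle, the score of each of the 14 whole eye arrays on the first principal component, by slide, over all probes and over probes whose mean reached the 75th percentile. Right, the median signal of the 4630 probes lower on slide 2, on each array (log2 minus the array's 75th percentile). Each point is 1 array, blue for WT and red for Per3-/-. Over all probes, slides 2 and 4 lie at opposite ends with slides 1 and 3 between them.

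Of 41174 probes, 4630 were at least 2-fold lower on slide 2 with no overlap between its 4 arrays and the 4 of slide 4 (11.2%), and 29 were higher by the same rule (0.0704%). Nothing is read from these shares, since the difference chose the arrays. The direction was uneven: 99.4% of the probes past the rule were lower on slide 2. Quantile normalization moved the median of all probes from -0.08 to 0.05 and the split to 73.7% lower, with 2451 lower and 874 higher. The 5 probes just inside the threshold differed by -1.001 to -1.0001, and the 5 just outside it by -0.9997 to -0.9983. Among the 28316 probes that the scanner software placed well above background on all 8 arrays, 1616 were lower (5.71%) and 13 higher (0.0459%). Of the lower probes, 923 rose well above background on each of the 4 arrays of slide 4 but on none of slide 2, and 464 did so on no array of either slide.

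The difference followed the level of the signal. When the probes were ranked by their mean over the 8 arrays and divided into deciles, the dimmest decile (decile 1), at the scanner's floor, had a median difference of -0.10 and held no called probe. The next 4 deciles had medians of -0.66, -0.68, -0.38 and -0.17. The brightest 3 deciles had medians between 0.01 and 0.02. Deciles 2 to 5, called dim below, hold 16469 probes and 4326 of the lower ones (93.4%), whereas the 3 brightest deciles, with 12352 probes, hold 8 lower and 5 higher. Most of the difference thus lay in dim probes, and the abundant transcripts of the eye sat close to 0. The 75th percentile itself was alike in the slides, at an intensity of 1196 to 1543 on slide 2 and 1243 to 1460 on slide 4.

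**Figure D2:**
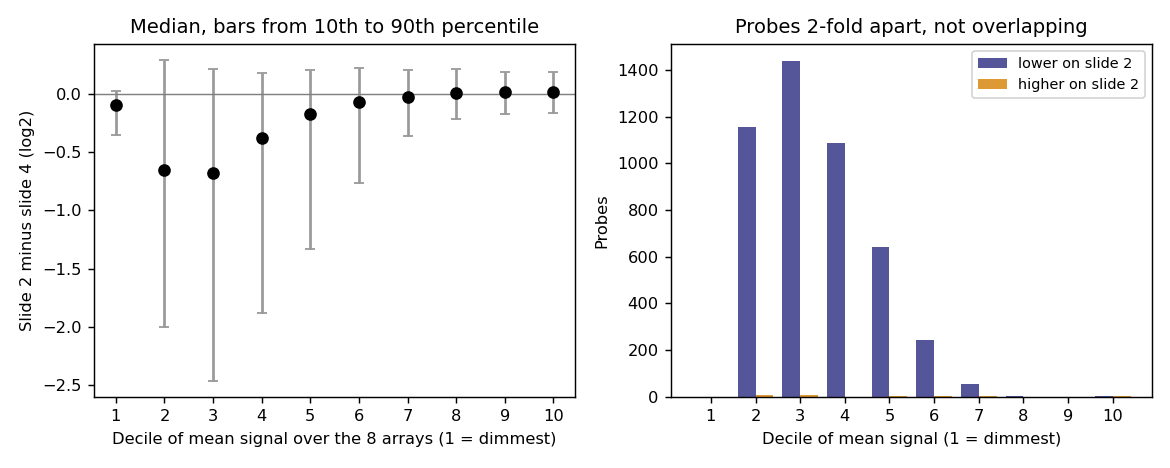
Left, the slide 2 minus slide 4 difference by decile of mean signal over the 8 arrays, as the median with bars from the 10th to the 90th percentile of the probes. Right, the number of probes in each decile that were at least 2-fold apart with no overlap between slides. The lower signal on slide 2 relative to slide 4 is concentrated in deciles 2 to 5 and the 3 brightest deciles are centred near 0.

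The lower group was led by chemosensory receptors. Of the 15 genes with the largest lower difference among probes well above background on all 8 arrays, 8 encode olfactory receptors and 1 a vomeronasal receptor. The probes of the 3 olfactory receptors with the largest lower difference, and of the 1 receptor among the named higher genes, are printed with the C bases in capitals, because C content went with the difference among dim probes.

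Olfr1364: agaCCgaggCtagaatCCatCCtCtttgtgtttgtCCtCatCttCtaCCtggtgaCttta
Olfr435: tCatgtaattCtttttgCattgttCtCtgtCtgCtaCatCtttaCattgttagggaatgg
Olfr1282: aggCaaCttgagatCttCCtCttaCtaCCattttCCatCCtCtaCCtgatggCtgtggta
Olfr1402: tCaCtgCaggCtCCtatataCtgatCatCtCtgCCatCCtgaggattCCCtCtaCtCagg

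In mm9 these are chr13:21666189-21666248 (minus strand), chr6:43151710-43151769 (plus), chr2:111176114-111176173 (minus) and chr3:97214397-97214456 (minus), and the array annotation places each within the transcript of its receptor. The first 3 start at bases 75, 65 and 60 of the transcript and the Olfr1402 probe at base 646. They hold 16, 10, 17 and 20 C bases. The probe of the 1 higher receptor is thus the richest in C of the 4, so single probes did not follow the trend described further on.

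Olfr1364 read -6.07 and -5.75 in WT and -5.55 and -5.28 in Per3-/- on slide 2, against -2.60 and -2.92 in WT and -2.91 and -2.77 in Per3-/- on slide 4. The groups lay far apart, and the difference was -2.86 (SE 0.16), a 7.28-fold lower signal on slide 2. Slide 1 (-4.79 and -5.08) and slide 3 (-4.03 to -3.41) fell between them. Olfr435 differed by -2.71 (SE 0.16), and Olfr1282 by -2.68 (SE 0.18). The pheromone receptor gene Vmn1r230 differed by -2.66 (SE 0.24). Olfr1402 went the other way, from -3.98 to -3.69 on slide 2 and from -5.50 to -4.50 on slide 4, and stood at -3.41 to -2.79 on slides 1 and 3.

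Each of the 1039 olfactory and vomeronasal receptor genes with a probe was represented by its brightest probe. On slide 2, 527 were lower (50.7%) and 2 higher, against 11.2% and 0.0704% of all probes. Only 287 of the 1039 were well above background on all 8 arrays, and of these 147 were lower and 1 higher. Over the 1039 the median difference was -1.22, against -0.08 over all probes. The median moved to -0.65 with quantile normalization and to -0.31 with a background correction that adds an offset (normexp). The median receptor level was -7.12, -7.56, -7.17 and -6.85 on the arrays of slide 2 and -5.07, -5.29, -5.10 and -5.34 on those of slide 4. On slide 1 it was -6.38 and -6.18, on slide 3 -6.14 to -5.85, and in the 16 hypothalamus arrays -8.24 to -7.33. The slides of the eye thus kept the order of the first component in this family. Between 32.1% and 39.4% of the receptor probes were well above background on the arrays of slide 2 and between 53.5% and 65.4% on those of slide 4.

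The receptors stood apart at like brightness. In decile 3 of signal, the 259 receptor probes had a median difference of -2.23 and the 3858 other probes one of -0.62; in decile 5 the medians were -1.20 and -0.16. Among dim probes, Olfr genes had 467 of 733 probes lower with a median of -1.71, Vmn1r genes 44 of 72 with -1.61 and Vmn2r genes 14 of 24 with -1.45. The other families examined varied. The keratin-associated proteins of hair (Krtap) had 20 of 32 dim probes lower with a median of -1.21, the beta-defensins (Defb), antimicrobial peptides of epithelia, 11 of 21 with -1.29, and the serine protease inhibitors (Serpin) 17 of 37 with -1.09. G protein-coupled receptors named Gpr had 26 of 65 lower with -0.77, interleukins and their receptors (Il) 24 of 71 with -0.59, cytochromes P450 (Cyp) 18 of 57 with -0.77 and solute carriers (Slc) 52 of 218 with -0.38. By contrast, zinc finger genes (Zfp) had 25 of 227 dim probes lower with a median of -0.06, and the beta-protocadherins, adhesion proteins of neurons, 0 of 13 with -0.03. Over all dim probes, 26.3% were lower with a median of -0.43.

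The remaining named genes among the lower ones have no shared role. The largest difference was that of a dim probe for Abr, a regulator of small GTPases, at -6.04 and -5.18 in WT and -5.61 and -5.64 in Per3-/- on slide 2, and at -2.43, -2.65, -2.54 and -2.40 on slide 4 (difference -3.11, SE 0.18). A brighter probe of the same gene, at a mean of 0.03, differed by 0.29. The 2 probes of Abr thus gave different answers for 1 gene. The others were Slc22a19, an organic anion transporter, at -2.73, Stard9, a kinesin, at -2.62, the muscle stem cell factor Pax7 at -2.55, Ugt2b37, a glucuronosyltransferase, at -2.55, and Adam30, a gene of the testis, at -2.54. Olfr1276, Olfr218, Olfr1316, Olfr1215 and Olfr259 lay between -2.62 and -2.54.

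**Figure D3:**
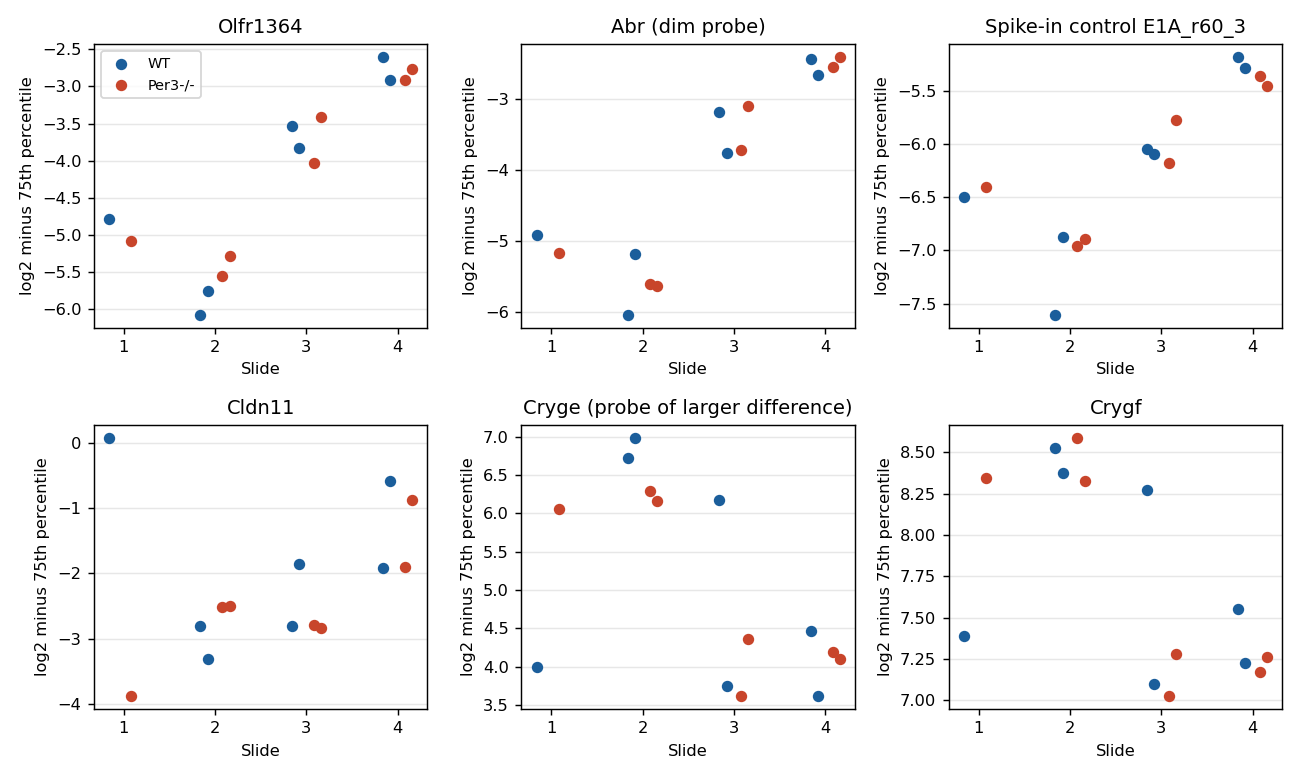
Signal of 5 genes and 1 spike-in control on each of the 14 whole eye arrays, by slide (log2 minus the array's 75th percentile). Each point is 1 array, blue for WT and red for Per3-/-, and the vertical scales differ between panels. Olfr1364, the dim Abr probe and the control E1A_r60_3 rise in the same slide order, whereas Cldn11, Cryge and Crygf spread widely within slides 1 and 3.

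Base composition of the probe went with the difference among dim probes. The median difference was -0.08 for dim probes with at most 7 C bases, -0.18 for 8 to 10, -0.40 for 11 to 13, -0.73 for 14 to 16 and -1.05 for 17 to 19. The reverse held for A, from -1.07 with at most 10 A bases to -0.12 with at least 23. G and T did little, since the medians stayed between -0.56 and -0.38 for G and between -0.53 and -0.39 for T. Over the 16469 dim probes, Spearman's rho of the difference was -0.35 with C, 0.31 with A, 0.06 with G and -0.05 with T; probes share arrays and are not replicates, so no p is given. In the 3 brightest deciles the medians by C content stayed between -0.01 and 0.02. The trend with C was present within each dim decile. In decile 3 it ran from -0.07 with at most 7 C bases to -1.48 with at least 17, and in decile 5 from 0.03 to -0.75.

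Receptor probes were richer in C, with a median of 14 bases over the receptor list against 12 over all dim probes. Their median was -0.92 over the 8 probes with at most 7 C bases, -1.41 at 8 to 10, -1.72 at 11 to 13, -1.74 at 14 to 16 and -1.76 at 17 to 19, and -1.12 over the 19 probes with at least 20. The medians of the other dim probes were -0.08, -0.17, -0.37, -0.68, -0.99 and -1.02 in the same classes. The receptors had the lower median in each class.

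Probes of the same gene were then compared with each other. There were 2003 genes with several dim probes, giving 3134 pairs. Where the pair differed by 1 or 2 C bases, the probe with more C had the lower difference in 52.4% of 1096 pairs. With a gap of 3 to 5 bases the share was 58.5% of 1109, with 6 to 8 it was 68.2% of 472, and with 9 or more it was 77.0% of 200. For the same pairs, dim in the eye whatever their signal in the hypothalamus, the shares in the hypothalamus arrays of the same replicate numbers lay between 44.3% and 47.8%.

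On each array, the shift of C-rich dim probes (at least 17 C) minus that of C-poor ones (at most 7) separated slides 2 and 4. It was -0.56, -0.47, -0.39 and -0.15 on slide 2 and 0.51 to 0.61 on slide 4, with no overlap. It was -0.16 and -0.09 on slide 1 and -0.24 to 0.36 on slide 3, where the array of Per3-/- replicate 6 held the highest value, so both of these slides overlapped with slide 2. On the 16 hypothalamus arrays, with dim probes ranked by their signal in that tissue, it lay between -0.16 and 0.21.

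**Figure D4:**
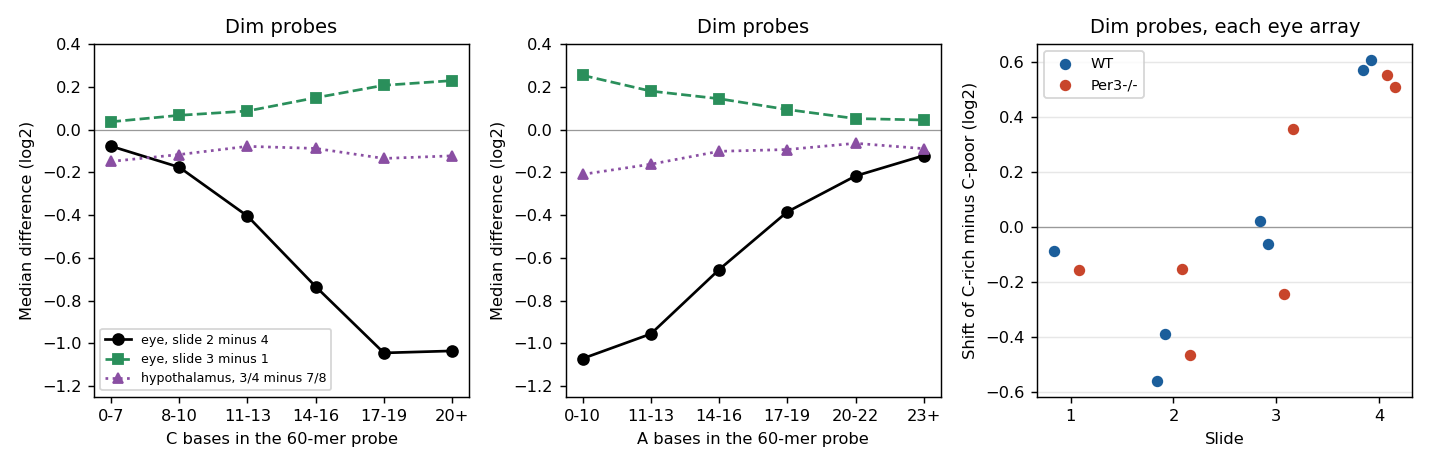
Left and middle, the median difference of dim probes by the number of C and of A bases in the 60-base probe, for the eye (slide 2 minus slide 4, and slide 3 minus slide 1) and the hypothalamus (replicates 3 and 4 minus 7 and 8). For the hypothalamus, dim probes were ranked by their signal in that tissue. Right, the shift of C-rich minus C-poor dim probes on each eye array, by slide, blue for WT and red for Per3-/-. The slope is steep only for slide 2 minus slide 4, and the 4 arrays of slide 4 lie above all others.

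The place of the probe in its transcript went with the difference as well. Dim probes that start within the first 500 bases of the transcript had a median of -0.82, those beyond 500 and up to 1000 -0.61, up to 2000 -0.37, up to 4000 -0.26, and those beyond 4000 -0.17. The order was the same at a fixed C content of 11 to 13 bases (-0.69 to -0.19) and without the receptors (-0.74 to -0.17). The position is counted from the transcript start, so it also carries transcript length, which was not taken into account. Probes that span more than 60 bases of genome, as those across an exon junction do, had a median of -0.37. Probes lying in 60 unbroken bases had -0.43, and at 11 to 13 C bases the medians were -0.28 and -0.41. Probes with a shorter mapped span are in neither group. The 355 dim probes with no mm9 position had a median of -0.95, with 42.0% lower, and -0.71 at 11 to 13 C bases. The 2 name series of the probe design differed among dim probes, with medians of -0.57 (31.2% lower) and -0.35 (22.9% lower), but less over all probes (11.7% and 10.9% lower).

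The cell types of the retina and its pigment epithelium had medians close to 0. Rod photoreceptor genes (24 with a probe) had a median of 0.03 with none past the rule, cone genes 0.14, bipolar cell genes 0.12, pigment epithelium and visual cycle genes 0.08, genes of melanin synthesis 0.04 and of Mueller glia and astrocytes 0.01. Amacrine and horizontal cell genes had a median of -0.01 with 1 of 15 past the rule (6.67%). It was Chat, the acetylcholine-synthesising enzyme, at -1.35. Retinal ganglion cell genes had a median of 0.04 with 1 of 13 past it (7.69%), at -1.21. Both shares lay below the 11.2% of all probes, a share made up mostly of dim probes. Cytosolic ribosomal proteins had a median of 0.05 and oxidative phosphorylation genes -0.07. Immediate early genes, which respond to light, stood at 0.00 and the circadian clock genes at 0.10, with 2 of 19 of the latter lower (a share near the 11.2% of all probes), Per3 being 1 of them.

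**Figure D5:**
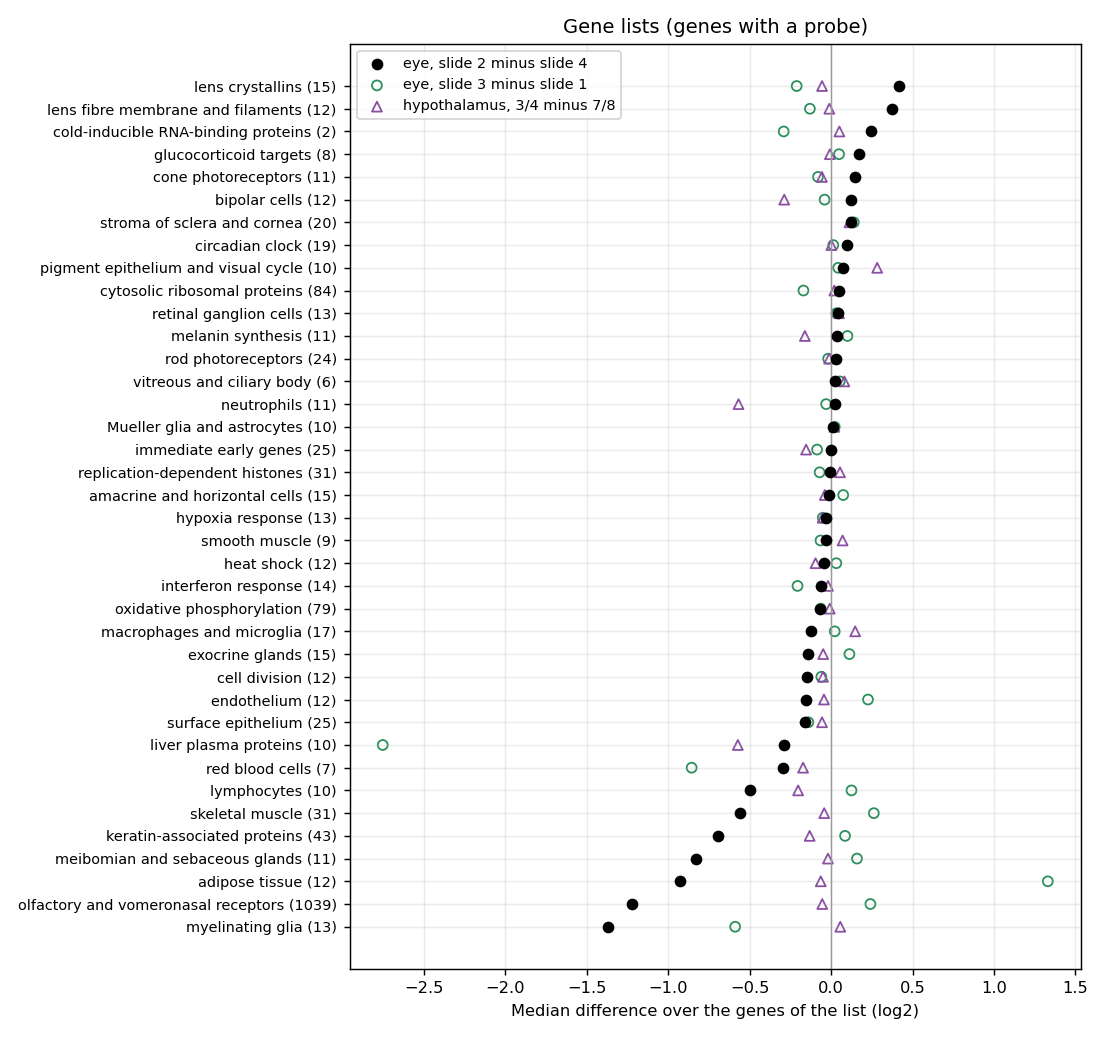
Median difference over the genes of each of the 38 gene lists, with the number of genes with a probe in brackets, for slide 2 minus slide 4 (filled circles), slide 3 minus slide 1 in the eye (open circles) and replicates 3 and 4 minus 7 and 8 in the hypothalamus (triangles). Lists of retinal cells lie near 0, lens lists are highest on slide 2, and the lowest medians belong to myelinating glia and chemosensory receptors.

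Of the 38 lists, 6 had a median at or below -0.5 and none a median at or above 0.5. Beside the receptors and the keratin-associated proteins, these were tissues that can stay attached to an eye: myelinating glia (-1.37, 8 of 13 lower), adipose tissue (-0.93, 1 of 12), meibomian and sebaceous glands (-0.83, 1 of 11) and skeletal muscle (-0.56, 0 of 31). For the last 3 the medians were low, but the share of genes past the rule (8.33%, 9.09% and 0%) did not exceed the 11.2% of all probes. That share is an unlike measure, since 93.4% of the lower probes were dim. The median level was 4.14 for the muscle list and 1.78 for the adipose list. In the 3 brightest deciles, where these levels lie, 0.0243% to 0.0972% of probes were lower. Each of the 31 muscle genes was lower on slide 2, with differences from -1.43 to -0.15. With normexp 3 lists were past this size. The median of keratin-associated proteins (-0.69, 18 of 43 lower) moved to -0.19 with quantile normalization. That of lymphocyte genes, just short of the size (-0.50, 4 of 10 lower), turned to 0.13 with it.

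Most myelin genes were lower on slide 2, although probes of the same gene did not always give the same answer. Cldn11, the tight junction claudin of myelin, read -2.81 and -3.31 in WT and -2.51 and -2.50 in Per3-/- on slide 2, and -1.92 and -0.58 in WT and -1.90 and -0.88 in Per3-/- on slide 4. The slides did not overlap, and the difference was -1.46 (SE 0.36). Mbp, the myelin basic protein gene, gave -1.37 and -1.58 through 2 of its probes and 0.02 through the remaining 1, whose 8 values lay between 2.77 and 3.28. Mobp, another myelin protein gene, differed by -1.89, -1.52 and -0.39 through 3 probes. Mog, a glycoprotein gene of the myelin surface, gave -1.76 through its brighter probe and 1.73 (SE 0.99) through a dimmer one that was well above background on 2 of the 8 arrays. Mag and Cnp, further myelin genes, differed by -0.68 and -0.71. The spread within slides was large. Cldn11 stood at 0.07 in the WT array of slide 1 and at -3.88 in the Per3-/- array of the same slide, which were the highest and the lowest of the 14. On slide 4 both arrays of replicate 8 lay above both of replicate 7.

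Muscle and fat varied within slides too. Among probes at or above the 75th percentile, a rule of 1.5-fold without overlap gave 20 lower and 37 higher. The lower ones included the fast muscle myosins Myh8 (-0.88) and Myh4 (-0.78), the muscle thick filament protein Mybpc2 (-0.65), and the myelin genes Mbp, Cnp and Mag. The muscle list still overlapped as a whole. The median deviation of its genes from their mean over the 14 arrays was 0.38 in Per3-/- replicate 3 and -0.67 to -0.35 on the other 3 arrays of slide 2, against -0.07 to 0.72 on slide 4. Fabp4, the fatty acid carrier of fat cells, ranged from 2.89 to 6.07 on slide 2 and from 4.48 to 6.19 on slide 4, and the ranges overlapped. The part of attached tissue in the slide difference was not tested.

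Of the 9 named genes higher on slide 2, 2 encode lens crystallins. Cryge, a gamma crystallin, read 6.72 and 6.98 in WT and 6.29 and 6.15 in Per3-/- on slide 2 and 4.46, 3.62, 4.19 and 4.09 on slide 4, a difference of 2.45 (SE 0.23), or 5.46-fold. Its second probe gave 1.49. Crygf differed by 1.15 (SE 0.11), from 8.33 to 8.59 on slide 2 and from 7.17 to 7.55 on slide 4. The pattern was not one of slide alone. The Per3-/- array of slide 1 (6.06) and the array of WT replicate 5 on slide 3 (6.18) were as high for Cryge as slide 2, and the other 4 arrays of slides 1 and 3 lay between 3.62 and 4.36. The gamma crystallins are close paralogs, so a probe may read several of them.

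The other crystallins differed less. Over 15 crystallin genes the median was 0.42, with 2 past the rule, and over 12 genes of lens fibre membranes and filaments it was 0.37 with none. Crygn differed by 0.75, Crybb1 by 0.63 and 0.53 through 2 probes, Crygd by 0.42 and Crygc by 0.20. Dnase2b, the nuclease that clears DNA from lens fibres, differed by 0.67, and its 4 arrays of slide 2 (1.43 to 1.74) lay above those of slide 4 (0.72 to 1.06). The medians of both lens lists kept their direction under each scaling.

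The 6 other named genes higher on slide 2, beside Olfr1402, were Npnt (1.32), a matrix protein of basement membranes, Ces2b (1.16), a carboxylesterase, Mysm1 (1.12), a histone deubiquitinase, Gbp9 (1.02), an interferon-induced GTPase, Hoxc4 (1.02), a patterning factor, and Colca2 (1.01). For Npnt, Mysm1 and Gbp9, 2 arrays carried most of the difference. Npnt stood at -4.09 and -4.24 in both arrays of replicate 8 on slide 4 and between -2.46 and -1.79 on the other 6 of the 8 arrays. The same arrays were the lowest for Mysm1 and Gbp9.

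Measures that the choice of arrays did not use were then tested. Whether the slide difference depended on genotype was asked through their interaction. There, 0 of 41174 probes passed an adjusted p under 0.05 in either direction (limma, Benjamini-Hochberg; lowest adjusted p 0.37), with 1591 at an unadjusted p under 0.05, and 0 again with quantile normalization or normexp. With 2 arrays of each genotype on a slide the test can miss differences of 2-fold or more, so a count of 0 does not show that the genotypes were alike. Over the lower probes the median interaction was 0.23, against 0.004 over all probes. Between genotypes within the slides, 1 probe passed (0.00243% of all) and 1279 had an unadjusted p under 0.05. It was that of Prdm16, lower by 4.16 (SE 0.13) in Per3-/- with an adjusted p of 0.000219 (limma). Per3 was lower by 0.45 (SE 0.09) in Per3-/-, which did not pass (limma, adjusted p 0.999).

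The hypothalamus arrays of replicates 3 and 4 were set against those of 7 and 8, on slides of the same numbering. No probe passed in either direction (limma, Benjamini-Hochberg; 0% of 41174, lowest adjusted p 0.0565), although 5702 had an unadjusted p under 0.05. Over the 4630 probes lower in the eye, the median difference was -0.10, against -0.00 over all probes. Restricted to probes well above background, 28 passed as higher and 94 as lower, and in a fit of all 16 hypothalamus arrays 36 and 93. Olfr1364 lay between -6.57 and -5.94 on the 8 hypothalamus arrays, with a difference of -0.10 (SE 0.17).

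Slides 1 and 3 are not among the chosen arrays, but they entered the principal component behind the choice, so the comparison of these slides is not independent of it. By limma over all 14 arrays, 415 probes were higher on slide 3 (1.01%) and 94 lower (0.228%) at an adjusted p under 0.05. Of the 415, 397 were among the probes lower on slide 2, and 62 of the 94 were too; nothing is read from these overlaps. The median over the 4630 probes was 0.43, against 0.04 over all probes. Slide 3 is set against slide 1 alone, with arrays as units, so the p-values of this comparison do not measure the spread between slides. The fits share 1 estimate of the spread with the arrays of slides 2 and 4, and in a fit of the 6 arrays alone 0 and 1 probes passed. With the replicate number as a random block the counts were 260 and 60. They also hung on slide 1, which holds 1 array of each genotype: without its Per3-/- array 49 and 34 passed, and without its WT array 114 and 193. No probe passed with normexp.

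Among the probes with the lowest adjusted p in this comparison, 5 dim ones were higher on slide 3. They were not well above background on slide 1. Sprr3, a cornified envelope protein of surface epithelia (limma, adjusted p 0.000824), and NAP057140-1, without a described role, were not so on slide 3 either. No fold is given for them. For the others only bounds can be given. H2-M10.3, a class I histocompatibility gene, was at least 4.09-fold higher. AK044937 and 4930548J01Rik, transcripts without a described role, were at least 4.52-fold and 3.83-fold higher.

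Of the 5 that were lower on slide 3, the lowest adjusted p belonged to a probe with no gene symbol, NAP057120-1 in the array design (mm9 chr2:85512205-85512264, plus strand). It fell by 6.24 (SE 0.29; limma, adjusted p 7.61e-06), from 0.94 and 1.33 on slide 1 to between -5.48 and -4.75 on slide 3. On slide 2 it read 1.05 to 1.65 and on slide 4 -4.22 to -2.95, a difference of 4.95 (SE 0.24) between them. It was thus high on all 6 arrays of slides 1 and 2 and low on all 8 of slides 3 and 4, in both genotypes, while the 8 hypothalamus arrays of the same replicate numbers lay between -5.75 and -5.07. A second unnamed probe, NAP103681-1, fell by 2.21 (SE 0.15). Ereg, which encodes the growth factor epiregulin, fell by 1.39 (SE 0.11; limma, adjusted p 0.000824). Olfr218, also among the genes lowest on slide 2, fell by 1.92 (SE 0.20; limma, adjusted p 0.00234), from -3.94 and -3.52 on slide 1 to between -6.00 and -5.33 on slide 3. Olfr1184 was at least 7.74-fold lower on slide 3, where it was not well above background. Receptor genes thus went both ways in this comparison. Of 1039, 55 passed as higher and 17 as lower, with a median of 0.24. Over all 41174 probes, 415 passed as higher (1.01%) and 94 as lower (0.228%). The calls depended on the fit, as described above.

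Lastly, 22 measures of the arrays themselves were compared, taken from the scanner output, the control spots and the spike-in probes. In the eye 6 did not overlap between the slides, each with an exact permutation p of 0.0286, the smallest that 70 arrangements allow. None passed (exact permutation, adjusted p 0.105). The arrangements treat the 4 arrays of a slide as separate units, so these p-values do not measure the spread between slides. Of the same 22 in the hypothalamus, 6 did not overlap either. Spots were wider on slide 2 (median 48.2 to 48.5 pixels) than on slide 4 (46.5 to 47.2). The coefficient of variation of replicate probes was 3.51% to 5.19% on slide 2 and 5.30% to 5.94% on slide 4. That of the spike-in probes was 3.39% to 4.24% on slide 2 and 5.17% to 5.58% on slide 4. The spike-in detection limit (log10 of the added amount) was 1.27 to 1.51 on slide 2 and 1.61 to 1.85 on slide 4. The remaining eye measures that did not overlap were spike-in probes, described below. The local background lay at 53 on all 4 arrays of slide 2 and at 51 to 54 on slide 4, and negative controls overlapped.

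The labelling mix holds spike-in transcripts added in known amounts, which are not of mouse origin. Of the 10 spike-in probes, the dim E1A_r60_3 separated the slides as the receptors did, with -7.60 and -6.87 in WT and -6.96 and -6.90 in Per3-/- on slide 2 and -5.18, -5.29, -5.36 and -5.46 on slide 4. Its difference was -1.76, with slide 1 (-6.50 and -6.40) and slide 3 (-6.18 to -5.78) between. E1A_r60_a104, of like dimness, did not separate them, with -7.46 to -6.59 on slide 2 and -7.29 to -6.68 on slide 4. Of the 8 brighter spike-ins, E1A_r60_a22 did not overlap, at 1.51 to 1.98 on slide 2 and 1.35 to 1.46 on slide 4. The part of labelling, hybridisation or scanning in the gene values was not tested.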

How the data were processed

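Whole eye and hypothalamic RNA of WT and Per3-/- mice was labelled with Cy3 and hybridised to single-colour Agilent arrays of 60-base probes. The deposited scanner files, made by the authors with Feature Extraction 10.7.1.1 per the file headers, give an intensity per spot (gProcessedSignal), which is background-subtracted. The authors also deposited a log2 table, which equals log2 intensity minus the array's 75th percentile, centred on each probe's median over the tissue. Quality flags (other values per the file headers) marked spots well above background, uneven spots and outliers; 53 to 91 flagged spots per eye array were left out. Spots of 1 probe were averaged, giving 41174 probes. Main values are log2 intensity minus the 75th percentile. Base composition, transcript position and mm9 coordinates come from the hypothalamus files, which hold the same probes; the build used for the eye files differs, and probes were matched by name. Gene symbols came from a RefSeq table, in which 26918 probes were found by accession, 5082 by symbol and 817 by an older name; the other 8357 kept the name in the files.

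Differences, standard errors and tests came from limma 3.58.1 (R 4.3.3), with genotype or slide as covariate, two-sided, with Benjamini-Hochberg adjustment over all probes. Exact permutation tests over 70 arrangements, two-sided, used scipy 1.17.1. Each procedure was tested on simulated data. The limma p-values measure the spread between these mice only. Where slides are set against each other, they do not measure the spread between slides. Those of the array measures set single arrays against each other and do not measure the spread between slides. The number of arrays limits the precision. A gene in a list is represented by its probe of highest mean signal. "At least" folds use, per array, the higher of the probe's signal and the lowest signal among probes well above background.

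The arrays, gene lists and rules were chosen with earlier results of these data known. Named genes were the 15 largest differences in each direction among probes well above background on all 8 arrays, past 2-fold and not overlapping, with a symbol (9 were found higher); the 5 lowest adjusted p per direction in each test; the brightest, most and least different member of each list; and Per3 and Prdm16. The further probes of myelin, lens, muscle and fat genes, the gene families and the 1.5-fold rule for bright probes were chosen after their values were seen. Same-numbered eyes of the genotypes deviated together from the group means (correlations 0.109 to 0.627), but share a slide. With slide and genotype means taken out on slides 2 and 4, correlations were -0.177 to 0.0247. Taking out means by itself pulls such correlations below 0, so these values cannot decide whether the numbers mark pairs. The methods name no pairing, so numbers were not taken as pairs. Alternatives were quantile normalization, normexp with an offset of 50, probes well above background, flagged spots kept, the replicate block, other samples in the fit, other folds and each array left out.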

Additional observations from a re-analysis of the deposited data

Results flagged for a closer look

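In 92 groups of 4 arrays, 9 held an array that stood apart from its group by Dixon's test at the 95% level, a test that flags about 1 in 20 groups by chance. Among the named genes these were Adam30 on slide 2 (-6.07 in WT replicate 3), Ces2b on slide 2 (0.12 in Per3-/- replicate 3), Mysm1 on slide 2 (-2.80 in Per3-/- replicate 4) and Hoxc4 on slide 4 (2.30 in Per3-/- replicate 8). Among the array measures they were the spot width on slide 2 (48.5 pixels), the slope of signal on spike-in amount (1.04) and its detection limit (1.85, log10 of the added amount) on slide 4, E1A_r60_3 on slide 2 (-7.60 in WT replicate 3) and E1A_r60_n11 on slide 4 (5.14).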

How the results depend on the processing

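The count of probes lower on slide 2 (4630) was 635 with normexp, 2451 with quantile normalization, 1616 among probes well above background and 2700 at 3-fold, and 20 among bright probes at 1.5-fold, a rule added after seeing the data. In WT arrays alone the count was 6319 and in Per3-/- arrays alone 4607. Leaving out each array in turn gave 4417 to 5057. The count of higher probes (29) was 8 with normexp, 874 with quantile normalization, 13 among probes well above background, 172 at 1.5-fold, 5 at 3-fold, 107 in WT arrays alone and 232 in Per3-/- arrays alone. Leaving out each array gave 32 to 72, and more than 1.5 times the count without any 1 of WT replicates 3 (50), 4 (44), 7 (72) and 8 (57) or Per3-/- replicates 4 (46) and 7 (59); fewer arrays make overlap less likely. The number of lists past 0.5 (6) was 3 with normexp and 5 to 8 without an array. The interaction gave 1 higher probe with all 14 eye arrays, and the genotype comparison 2 higher and 7 lower; the latter gave 2 lower with normexp and 1 to 2 without an array (2 without WT replicate 7). The hypothalamus comparison gave 2 higher and 8 lower with quantile normalization, 28 and 94 among probes well above background, and 36 and 93 with all 16 arrays.

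For slide 3 minus slide 1 (415 higher, 94 lower), normexp gave 0 and 0, the 6 arrays alone 0 and 1, and probes well above background 154 and 46; quantile normalization gave 173 lower. Leaving out each array gave 49 to 618 higher and 34 to 193 lower, with 221 higher without Per3-/- replicate 6, 159 without WT replicate 5, 276 without WT replicate 8 and 55 lower without WT replicate 6. With the replicate block the counts were 260 and 60 there, and the block moved no other count of calls (1 lower probe between genotypes, 4630 and 29 between slides). The cause of these changes was not tested, except where fewer arrays or probes entered. No called value changed sign. Dim probes limit the comparison, since 2226 of the 4630 lower probes were not well above background on any array of slide 2. Their differences are at best bounds. For the 464 that were well above background on no array of either slide, the difference is not a bound.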
